A study of Mus musculus with 12 samples.

Results

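RNA of mitotic cells whose ribosomal protein RPL12 carries alanine in place of serine at residue 38 (S38A) was compared with RNA of mitotic cells with unchanged RPL12 (WT), using 4 of the 12 libraries of the study, 2 per line. The 4 libraries were taken by their labels, and no measured value was used to choose them. All cells were 19DN cells. These descend from 19PP, a lymphoma line of mouse B cells, and were sorted after loss of its reporters. The lymphoma arose in a Rag2-/- γC-/- mouse given bone marrow cells of the genotype Cγ1-Cre; Myc/P110*flSTOP, so that Myc and a PI3K subunit were switched on by a Cre expressed from an immunoglobulin heavy chain locus. The S38A and WT mitotic cells had received nocodazole, which blocks microtubule assembly, at 100 ng/mL for 8 h, were released for 10 min and were collected in cycloheximide, a translation inhibitor, at 100 µg/mL. Mitotic cells of a line with aspartate at the same residue (S38D, 2 libraries) had the same treatment. Asynchronous WT and S38A cells (2 libraries each), which had no nocodazole, and the S38D cells are used below only to show where the mitotic difference between S38A and WT was shared. How the mutations were introduced, and whether each line is 1 clone, is not given in the sources used here, so the mutation and other differences between the lines cannot be told apart.

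RPL12, also called uL11, is a protein of the large ribosomal subunit that forms the base of the ribosomal stalk, the place where elongation factors and other GTPases of translation dock. The study asked what phosphorylation of RPL12 does in mitosis, and alanine at residue 38 removes the side chain that a kinase could modify. The RNA came from cleared polysome lysates, and the data describe transcript levels in them, not translation. Rpl12 itself (chromosome 2, 32961559 to 32965345, GRCm38, GENCODE M21) was read at 73.5 and 74.4 CPM (read counts divided by the scaled library total) in the WT mitotic libraries and at 51.3 and 43.3 CPM in the S38A mitotic libraries. Its log2 difference was -0.64 (SE 0.158, adjusted p = 0.0102), and the adjusted p was 0.0514 without WT mitotic replicate 1 and 0.133 without S38A mitotic replicate 2. The reads lie at the 3′ end of the transcript, do not show codon 38 and therefore check nothing about the label. Reads that match Rpl12 pseudogenes may also be counted differently, since the treatment of reads with several matches is not given in the sources used here.

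The 4 libraries held 4428618 to 5603135 gene reads, and spike-in RNA made up 3.24% to 3.31% of gene reads in each. The WT mitotic replicates stood apart from each other. For 29% of genes their split of reads lay outside the 95% range of counting error, against 20.6% for the S38A mitotic pair. Counting alone puts some genes outside that range. They also lay at -15.1 and 15.1 on the main axis of variation within groups, against -7.12 and 7.12 for S38A. Nothing in the labels says that replicates came from separate cultures, so each p-value measures only the spread between these libraries, which may be technical. With 2 libraries a side, tests used the spread shared by all 12. These include the S38D asynchronous pair, for which 45.6% of genes lay outside the range of counting error. Genes with an adjusted p under 0.05 in edgeR's quasi-likelihood test (Benjamini-Hochberg over 10477 genes) are said to rise, fall or change, and all log2 values are S38A minus WT unless stated.

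Of the 10477 genes tested, 1785 (17.0%) changed between S38A and WT mitotic cells. In bulk RNA, fewer cells of a kind and less RNA per cell cannot be told apart. S38A was higher for 871 (8.31%) and lower for 914 (8.72%). A change of at least 2-fold was seen in 494 (4.72%), of which 188 rose and 306 fell. The count was 912 without WT mitotic replicate 1, 917 without S38A mitotic replicate 1 and 829 without S38A mitotic replicate 2, and DESeq2 called 1091.

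Chromosome 12 stood apart from the rest of the genome and is described first. Of its 383 tested genes, 152 rose and 7 fell, which is 41.5% of them against 17.0% of all genes. Their median log2 difference was 0.634, a 1.55-fold higher level in S38A, and 88.5% of them lay above 0. The median of the other 18 autosomes ranged from -0.044 to 0.082. Reads from chromosome 12 made up 2.01% and 2.03% of gene reads in the WT mitotic libraries and 2.85% and 2.88% in the S38A mitotic libraries. They made up 2.05% and 2.04% in the S38D mitotic libraries, close to the WT shares. Leaving out those immunoglobulin genes that lie on this chromosome left 1.99% and 2.01% in WT and 2.81% and 2.84% in S38A.

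**Figure D1:**
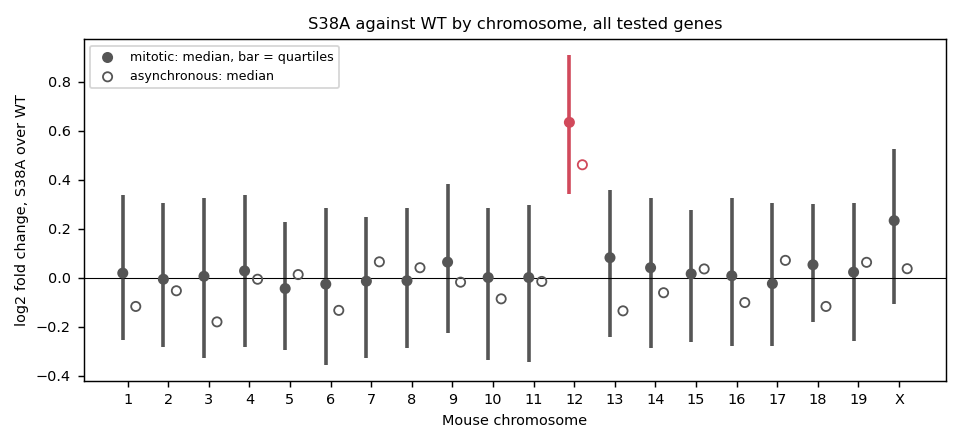
Log2 difference between S38A and WT by mouse chromosome. Filled points are medians over all tested genes in mitotic cells with bars from the lower to the upper quartile, and open points are medians in asynchronous cells. Chromosome 12 (red) has a mitotic median of 0.634 and its lower quartile of 0.341 lies above the median of every other chromosome drawn.

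The higher level ran along the whole chromosome. In 5 consecutive blocks of 76 or 77 tested genes, the median was 0.687, 0.619, 0.491, 0.642 and 0.7 from the first block, which starts at 3235504, to the last, which ends at 118852576. Calls in these blocks numbered 31, 26, 23, 34 and 38 rises against 2, 1, 0, 3 and 1 falls. The same genes had a median of 0.461 in asynchronous cells, where 144 rose and 17 fell (11.7% and 9.54% of all genes). Those libraries share nothing with the mitotic ones except the estimate of the spread. Scaling to the spike-ins shifted the asynchronous median of all genes by -0.45, to -0.47, and the chromosome 12 median was then 0.02. The same scaling left the mitotic median of all genes at 0.03 and that of chromosome 12 at 0.64. Against S38D mitotic cells the chromosome 12 median of S38A was 0.533, with 145 genes higher and 10 lower (17.7% of all genes changed in that comparison, 10.2% higher and 7.51% lower). That comparison shares the S38A mitotic libraries with the main one. Between S38D and WT, which share the WT libraries with it, the median was 0.07, with 5 genes higher and 14 lower (4.56% of all genes changed, 1.15% higher and 3.41% lower).

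Among chromosome 12 genes, Cpsf2, a subunit of the complex that cleaves mRNA precursors, was at 58.0 and 48.9 CPM in WT and at 156 CPM in both S38A libraries. It rose by 1.54 (SE 0.117, adjusted p = 5e-07). Hsp90aa1, the inducible HSP90 chaperone, went from 33.1 and 29.4 CPM to 94.2 and 77.3 CPM, and G2e3, a ubiquitin ligase named for its G2/M expression, from 11.5 and 8.34 CPM to 29.5 and 26.4 CPM. Adssl1, an enzyme of AMP synthesis, rose by 1.57 (SE 0.195) and Sntg2, a syntrophin, by 1.80 (SE 0.385). Sntg2 stood at 5.86 and 1.32 CPM in the WT libraries and had an adjusted p = 0.0753 with only the groups compared. For each of these 5 genes both S38A libraries lay above both WT libraries, as the rule for named genes required (30.2% of all genes do). Only 2 genes on the chromosome fell by the rule for named genes. Tmem121, a membrane protein gene near the immunoglobulin heavy chain locus, was at 12.8 and 12.1 CPM in WT, 2.71 and 3.19 CPM in S38A and 34.2 and 32.8 CPM in S38D. Erg28, which encodes a scaffold of sterol enzymes, fell by 0.46 (SE 0.101, adjusted p = 0.00519) in mitotic cells and rose by 0.39 (SE 0.101, adjusted p = 0.0118) in asynchronous cells. Its mitotic adjusted p was 0.0563 without WT mitotic replicate 1 and 0.0531 without S38A mitotic replicate 2.

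Chromosome X had the next highest median, 0.233, with 53 of 308 genes up and 10 down (8.31% and 8.72% of all genes). Its blocks ranged from 0.071 to 0.369, and its asynchronous median was 0.037. Outside chromosomes 12 and X, 1563 of 9786 genes changed (16.0%), 666 up and 897 down, around a median of 0.007.

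Off chromosome 12, 1626 of 10094 genes changed, 719 up and 907 down. The largest falls were near losses of a transcript. Ptprcap, whose product binds the lymphocyte phosphatase CD45 (chromosome 19, 4153604 to 4156751), was at 34.4 and 32.0 CPM in WT and at 0.542 and 0.355 CPM in S38A. Those values stand for 328 WT reads against 5 S38A reads, and its log2 difference was -6.14 (SE 0.413, adjusted p = 1.58e-07). Counting error alone gives a 95% interval of -7.85 to -4.98 for the log2 ratio of these reads. Car2, a carbonic anhydrase (chromosome 3, 14886273 to 14900770), went from 35.3 and 47.0 CPM to 0.904 and 1.42 CPM, a fall of 5.11 (SE 0.532). Wnt10a, a secreted Wnt ligand (chromosome 1, 74791516 to 74804179), went from 21.9 and 22.4 CPM to 0.723 and 0.709 CPM. Kcnab2, a potassium channel subunit (chromosome 4, 152390742 to 152477871), went from 72.2 and 61.9 CPM to 3.62 and 2.13 CPM.

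The other large falls included surface, secreted and stress proteins. Ly6a, the membrane antigen Sca-1, was at 149 and 136 CPM in WT and at 11.4 and 9.75 CPM in S38A, a fall of 3.75 (SE 0.176). Clec4d, a C-type lectin, fell by 3.27 (SE 0.268), and Afp, the fetal serum protein alpha-fetoprotein, by 3.28 (SE 0.261). Ntn5, a netrin, went from 19.8 and 16.5 CPM to 1.63 and 1.77 CPM. Nupr1, a small nuclear protein induced by stress, stood at 13.6 CPM in both WT libraries and at 0.723 and 0.532 CPM in S38A. The differences were -3.87 (SE 0.271) for Map1a, a microtubule-associated protein gene, -4.18 (SE 0.429) for Gas7, a growth arrest gene, and -2.79 (SE 0.219) for Epop, a partner of Polycomb and elongin complexes.

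The largest rises were smaller in fold. Ackr4, an atypical chemokine receptor that takes up CCL19 and CCL21 (chromosome 9, 104084157 to 104126933), went from 4.53 and 7.68 CPM to 49.2 and 43.6 CPM, a rise of 2.94 (SE 0.205, adjusted p = 1.89e-07). Nacc2, a BTB-domain repressor, went from 5.67 and 5.49 CPM to 31.6 and 27.8 CPM. Slc41a2, a magnesium transporter (chromosome 10, 83230848 to 83337882), went from 68.2 and 59.5 CPM to 266 and 255 CPM. Pecam1, the adhesion molecule CD31, rose by 1.94 (SE 0.171) and the membrane protein gene Shisa8 by 1.87 (SE 0.156). The remaining 7, Cdc5l, Magee1, Zc3h12d, Fam167b, Tspoap1, Anxa10 and Nipsnap1, rose by 1.64 to 1.85. Each of these 12 falls and 12 rises was chosen by size and by separated libraries. Each kept its call in every alternative setting that gave it an adjusted p-value.

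**Figure D2:**
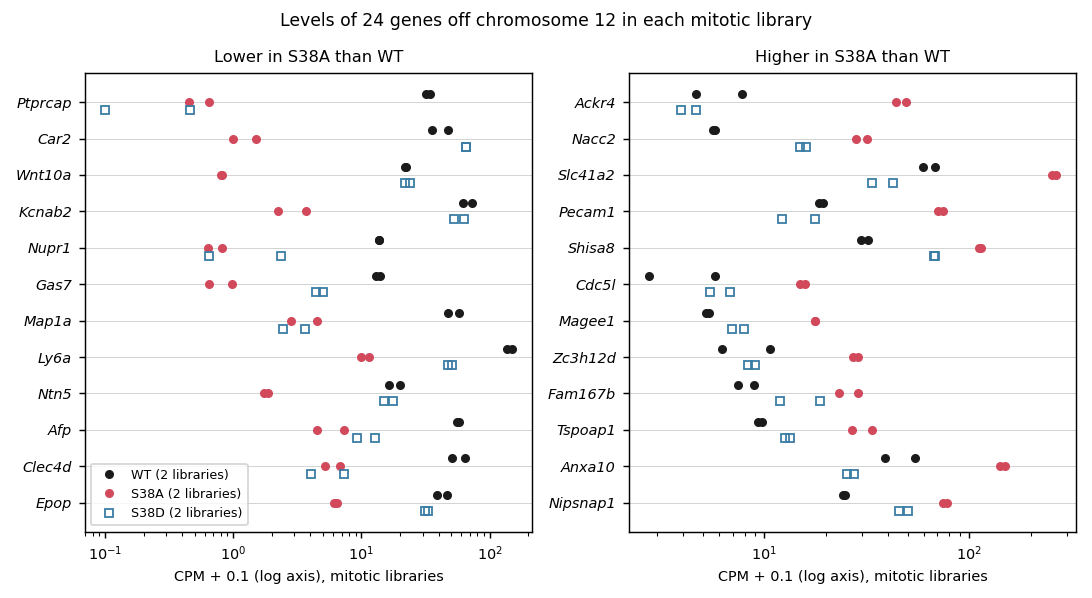
CPM (plus 0.1, log axis) of the 12 largest falls (left) and rises (right) off chromosome 12 in each mitotic library. Every S38A point (red) lies apart from the WT points (black), while S38D (blue squares) lies with S38A for Ptprcap and Clec4d and with WT for Wnt10a and Kcnab2.

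All 24 of these genes also changed in the same direction in asynchronous cells. Among their neighbours on the chromosome, 2 of the 24 tested genes flanking the falls fell, Car3 beside Car2 and Sec1, which overlaps Ntn5. Of the 24 flanking the rises 3 rose, Dnajc13, Tnfrsf13c and Ppil4. These counts are near the shares over all genes, of which 8.72% fell and 8.31% rose. Coro1b, beside Ptprcap, rose by 0.47 (adjusted p = 0.039). Ptprcap overlaps Coro1b and Rps6kb2, Map1a overlaps Ppip5k1 and Ackr4 overlaps Acad11 in the annotation. The strand setting of the count is not given in the sources used here, so reads of overlapping genes may not be fully separated.

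The same genes were compared between the mutant lines. This comparison uses the S38A mitotic libraries by which the genes were chosen, so a difference in the same direction is partly built in. All 12 rises were higher in S38A than in S38D mitotic cells, by 0.68 for Nipsnap1 to 3.47 for Ackr4. Of the 12 falls, 8 were lower in S38A than in S38D. Of all genes, 10.2% were higher and 7.51% lower in that comparison. For Car2, Wnt10a and Kcnab2 the S38D libraries were near or above the WT values, at 65.9 and 64.9 CPM for Car2, 23.7 and 21.9 CPM for Wnt10a and 52.3 and 62.9 CPM for Kcnab2. Their log2 differences between S38A and S38D were -5.78 (SE 0.523, adjusted p = 0.000181), -4.95 (SE 0.279) and -4.32 (SE 0.241). Gas7, Ly6a, Afp, Ntn5 and Epop were lower in S38A than in S38D as well. Ptprcap was nearly absent from S38D too, with 0 and 0.362 CPM, and Map1a, at 3.50 and 2.36 CPM, and Clec4d, at 3.91 and 7.25 CPM, were close to their S38A values. Nupr1 did not pass the test between the mutants (adjusted p = 0.27). Of the genes higher in S38A than in S38D, the largest difference by the rule for named genes was that of Crip1, a LIM-domain protein gene on chromosome 12, at 3.92 (SE 0.19, adjusted p = 6.87e-09). It was at 70.5 and 61.2 CPM in S38A, 4.53 and 4.17 CPM in S38D and 26.1 and 23.9 CPM in WT. Sapcd1, at 1.45 and 0.177 CPM in S38A and 12.6 and 10.9 CPM in S38D, was the fourth of the genes lowest in S38A against S38D, after Car2, Wnt10a and Kcnab2.

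The genes of the cholesterol list were lower in S38A mitotic cells. Cells build cholesterol from acetyl-CoA through mevalonate, squalene and lanosterol, and also take it up from outside. The transcription factor SREBP2 drives both routes when membrane sterol is low, after SCAP carries it from the endoplasmic reticulum and unless INSIG proteins hold it there. Of 38 tested genes of this list, 24 fell and 1 rose (8.72% and 8.31% of all genes). Their median was -0.746 (0.027 over all genes). Both S38A libraries lay below both WT libraries for 30 of the 38, against 28.5% of all genes. The count that passed ranged from 15, without S38A mitotic replicate 2, to 29 when single libraries were left out.

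The steps of the pathway can be followed in order. Acat2, which condenses acetyl-CoA, fell by 0.99 (SE 0.167). Hmgcs1, the HMG-CoA synthase, went from 906 and 796 CPM to 661 and 590.0 CPM, a fall of 0.45 (SE 0.103, adjusted p = 0.00714). The mevalonate kinases and decarboxylase Mvk, Pmvk and Mvd fell by 1.02, 0.76 and 0.93. Fdft1, which makes squalene, went from 236 and 225 CPM to 112 and 87.0 CPM, a fall of 1.21 (SE 0.144, adjusted p = 3.58e-05). Sqle, which oxidises squalene, fell by 0.91 (SE 0.121) and Lss, which closes the rings, by 0.70 (SE 0.202).

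Past lanosterol, Cyp51 went from 1526 and 1325 CPM to 778 and 639 CPM and Msmo1 from 1071 and 989.8 CPM to 523 and 467 CPM. Hsd17b7 fell by 1.05 (SE 0.147), Sc5d by 0.53 (SE 0.128) and Dhcr7 by 1.05 (SE 0.146). Ebp and Lbr, which act between these steps, did not pass, at -0.03 and -0.14. Tm7sf2, a second sterol C14 reductase beside Lbr, was near the floor in S38A, with 0.362 and 0.355 CPM against 9.45 and 10.3 CPM in WT (-4.70, SE 0.543). Tm7sf2 was also low in asynchronous S38A cells, at 0.630 and 0.172 CPM, and is named here after its values were seen.

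Among the control genes, Insig1 fell by 0.93 (SE 0.244) and Scap by 0.39 (SE 0.113). Srebf2, the gene of SREBP2, differed between its WT libraries (325 and 556 CPM) and did not pass the test at -0.53 (SE 0.348, adjusted p = 0.365). The fatty acid genes Fasn, Acaca, Scd1 and Scd2 fell by 0.83, 1.02, 0.45 and 1.27, with Scd2, a stearoyl-CoA desaturase, at 1736 and 1643 CPM in WT and 723 and 679.9 CPM in S38A. Abca1, which exports cholesterol, was the gene that rose, by 0.87 (SE 0.257, adjusted p = 0.0285). Abcg1, another exporter, did not pass at -0.74 (adjusted p = 0.0537).

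**Figure D3:**
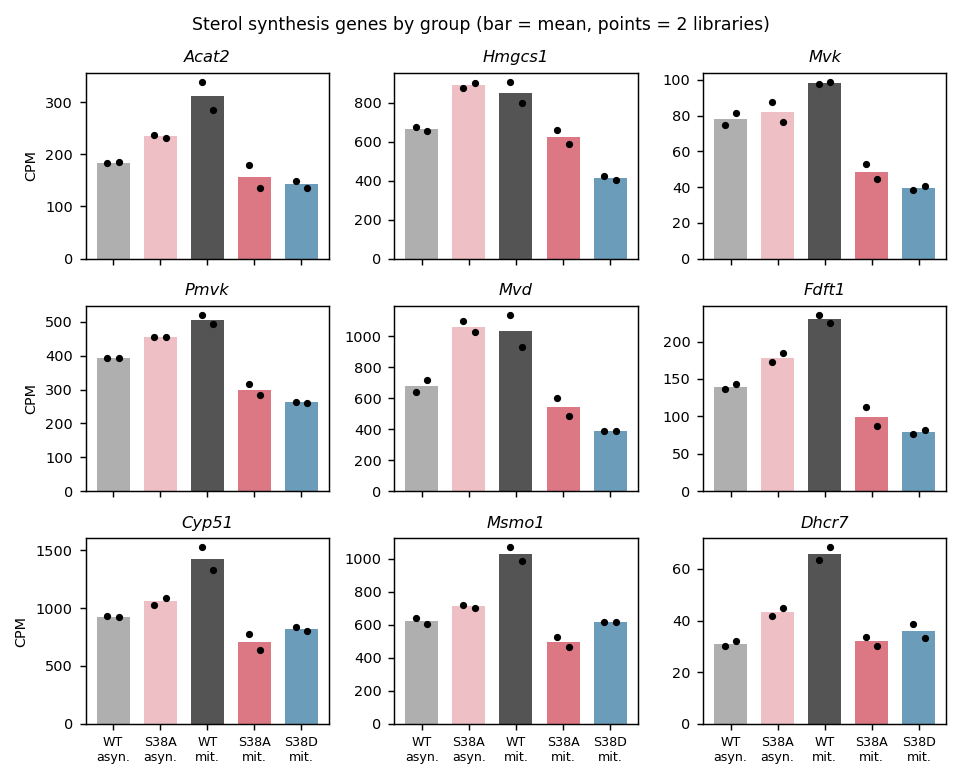
CPM of 9 genes of sterol synthesis by group (bars are means, points are the 2 libraries, axes start at 0). For each gene drawn both WT mitotic libraries lie above both S38A mitotic libraries, while in asynchronous cells both S38A libraries lie above both WT libraries for each gene drawn except Mvk, where they overlap. The 9 genes were picked from the cholesterol list. Its 38 tested genes had an asynchronous median of 0.001, with 4 up and 4 down.

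In asynchronous cells the same 38 genes had a median of 0.001, with 4 up and 4 down (11.7% of all genes rose and 9.54% fell there). In both states 3 of the 38 changed in the same direction. In WT, 26 of the 38 had a higher mean level in mitotic than in asynchronous libraries, and in S38A 4 did. The test of the difference between states called 15 of the 38 genes, all lower, against 0.993% of all genes. Among them were Fdft1 at -1.57 (SE 0.202, adjusted p = 0.00207), Msmo1 at -1.25 (SE 0.143, adjusted p = 0.0018), Dhcr7 at -1.53 (SE 0.209, adjusted p = 0.00266) and Cyp51 at -1.20 (SE 0.162, adjusted p = 0.00261). This count depended on single libraries and on scaling. It was 1 without WT asynchronous replicate 1. It was 4 to 8 without WT asynchronous replicate 2, WT mitotic replicate 1, or any single S38A library or S38D mitotic library, and 23 without either S38D asynchronous library. It was 7 (6 lower, 1 higher) under spike-in scaling, which took the list's median for the difference between states from -0.55 to -0.09 and its asynchronous median to -0.46. In mitotic cells the median under that scaling was -0.74, with 18 falls and no rise. In S38D mitotic cells the median against WT was -0.691, a value that shares the WT libraries. Between S38A and S38D the median was -0.083, with 4 genes higher and 7 lower (10.2% and 7.51% of all genes), among the lower ones Scd2 (-0.55, adjusted p = 0.001).

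Targets of ATF4 were also lower in S38A mitotic cells, in which 8.72% of all genes fell and 8.31% rose against WT. ATF4 is the transcription factor of the integrated stress response: when the initiation factor eIF2 is phosphorylated, its mRNA is translated and it switches on genes of amino acid synthesis, amino acid transport and tRNA charging, often through a promoter element shared with C/EBP proteins. Of 45 tested genes of this list 24 fell and none rose, with a median of -0.503, and 17 to 28 passed when single libraries were left out. The motif TGATGNAAN, a form of that element, was searched on both strands (its reverse is NTTNCATCA) in the 250 bases before the start site of RefSeq promoters (GRCm38.p6). Of the 45 genes 36 had a promoter in that table. The motif was found in 11 of them (30.6%), against 3.89% of all 27025 genes with a promoter and 2.26% of the 8112 tested ones. Since the list was made of ATF4 targets, a share above that of all genes was partly built in and says nothing about S38A. The motif was in 7 of 20 genes that fell and 4 of 16 that did not pass. The windows below show it in genes that fell, chosen after their values were seen, 5′ to 3′ on the gene's strand with the motif in capitals and up to 30 bases on each side.
Nupr1, chr7:126625543-126625611, minus strand: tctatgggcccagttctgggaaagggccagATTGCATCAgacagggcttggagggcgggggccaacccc
Herpud1, chr8:94386286-94386354, plus strand: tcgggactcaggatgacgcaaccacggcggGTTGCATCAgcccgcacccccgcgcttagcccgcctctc
Atf3, chr1:191183406-191183474, minus strand: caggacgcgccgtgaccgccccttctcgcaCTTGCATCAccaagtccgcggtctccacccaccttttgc
Slc7a11, chr3:50443641-50443709, minus strand: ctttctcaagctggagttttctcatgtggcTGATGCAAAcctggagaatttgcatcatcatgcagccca
Pycr1, chr11:120643813-120643881, minus strand: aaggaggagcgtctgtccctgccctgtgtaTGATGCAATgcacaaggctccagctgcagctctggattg
Gars, chr6:55037940-55038000, plus strand: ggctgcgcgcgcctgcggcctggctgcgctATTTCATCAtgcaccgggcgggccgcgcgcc

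The windows of Nupr1 and Atf3 lie inside the span that GENCODE gives these genes, whose annotation there includes longer transcripts. Slc7a11 holds a further match in lower case. A match is a description of these letters and not evidence of binding.

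The regulators of the list are given first. Trib3, a pseudokinase that feeds back on ATF4, went from 229 and 202 CPM to 75.2 and 71.8 CPM, a fall of 1.55 (SE 0.129, adjusted p = 1.1e-06). Ddit3, the stress transcription factor CHOP, went from 249.9 and 216 CPM to 92.7 and 98.6 CPM. Atf5, a relative of ATF4, went from 1853 and 1700.5 CPM to 746 and 728 CPM, a fall of 1.27 (SE 0.122). Atf4 itself fell by 0.59 (SE 0.124, adjusted p = 0.0038), Atf3 by 1.40 (SE 0.256) and Cebpb by 0.85 (SE 0.179). Of the genes with a motif window, Nupr1 is given above. The differences were -0.90 (SE 0.116) for Herpud1, of protein degradation at the endoplasmic reticulum, -2.09 (SE 0.408) for Slc7a11, the cystine transporter, -0.98 (SE 0.237) for Pycr1, of proline synthesis, and -0.50 (SE 0.121) for Gars, the glycyl-tRNA synthetase. Gars had an adjusted p of 0.0904 without WT mitotic replicate 1 and 0.113 without S38A mitotic replicate 2.

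Amino acid genes followed in part. Slc7a5, the large neutral amino acid transporter, fell by 0.65 (SE 0.103), the glycine transporter Slc6a9 by 1.23 (SE 0.158), Asns, the asparagine synthetase, by 0.53 (SE 0.143) and Mthfd2, of mitochondrial one-carbon metabolism, by 0.65 (SE 0.115). Eif4ebp1, the translation repressor 4E-BP1, fell by 1.13 (SE 0.125). Chac1, which degrades glutathione, did not pass, with 9.63 and 9.87 CPM in WT and 13.0 and 9.57 CPM in S38A. Of the 45 genes, 18 fell in both states. In asynchronous cells 19 fell and 4 rose (9.54% and 11.7% of all genes), with a median of -0.416. Under spike-in scaling 32 fell there and none rose, with a median of -0.87 against -0.47 for all genes. In the test of the difference between states, 2 of the 45 passed (0.993% of all genes did). None passed without any 1 of the WT and S38A asynchronous libraries, WT mitotic replicate 1 or either S38A mitotic library, 1 passed without either S38D mitotic library, and 7 and 6 passed without S38D asynchronous replicates 1 and 2. In S38D mitotic cells the list's median against WT was -0.762, a value that shares the WT libraries. The mean level of 40 of the 45 genes was lower there than in WT mitotic cells. Against S38D mitotic cells 12 of the 45 genes were higher and 2 lower in S38A (10.2% and 7.51% of all genes). Among the higher ones were Chac1 (2.53, adjusted p = 1.7e-05) and Trib3 (1.53, adjusted p = 2.96e-06), which was at 26.6 and 24.5 CPM in S38D.

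**Figure D4:**
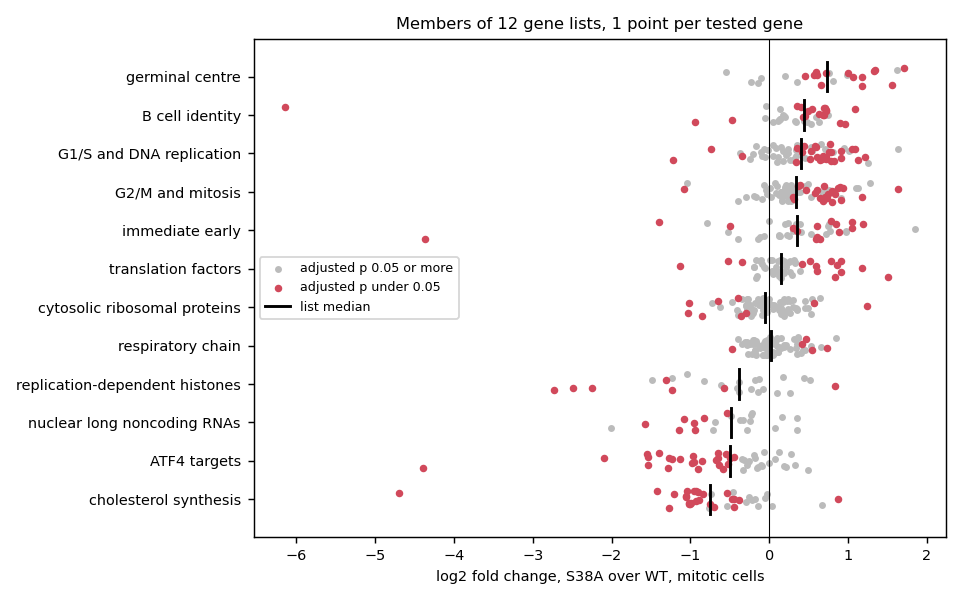
Log2 difference between S38A and WT mitotic cells for each tested member of 12 gene lists (points; red points passed the test) with the list median (black bar). The cholesterol and ATF4 lists have medians of -0.746 and -0.503, and the germinal centre list has a median of 0.738.

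Genes of germinal centre B cells, the stage in which activated B cells divide and mutate their antibody genes, were higher in S38A. Of 24 tested, 14 rose and none fell, with a median of 0.738 (8.31% of all genes rose). Bcl6, the repressor that defines the germinal centre programme, went from 80.1 and 72.8 CPM to 166 and 179.8 CPM, a rise of 1.18 (SE 0.126). Nuggc, a nuclear GTPase, rose by 1.34 (SE 0.157), S1pr2, the receptor that confines cells to the follicle, by 0.66 (SE 0.103) and Foxo1 by 0.60 (SE 0.106). Lmo2, at 16.1 and 29.4 CPM in WT and 68.3 and 71.1 CPM in S38A, did not pass (adjusted p = 0.0939). Against S38D 10 of the 24 were higher in S38A and none lower (10.2% and 7.51% of all genes), with Nuggc at 1.43 (SE 0.157). The mitotic count ranged from 7, without WT mitotic replicate 2, to 19 when single libraries were left out, and was 8 and 9 without S38A mitotic replicates 1 and 2.

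Among B cell identity genes more rose than fell. Of 38 tested, 16 rose and 3 fell (8.31% and 8.72% of all genes), with a median of 0.438. Ebf1, a transcription factor of the B lineage, went from 75.4 and 85.8 CPM to 141 and 158 CPM, a rise of 0.89 (SE 0.113). Ms4a1, the surface marker CD20, went from 493 and 435 CPM to 802 and 722 CPM, and Tnfrsf13c, the receptor for the survival factor BAFF, from 71.4 and 74.8 CPM to 158 and 152 CPM. Cr2, the complement receptor CD21, rose by 0.96 (SE 0.147). The 3 falls were Ptprcap, Vpreb3, a partner of immunoglobulin light chains, by 0.94 (SE 0.22) and Fcrl1, an Fc receptor-like protein, by 0.47 (SE 0.15). In asynchronous cells the germinal centre and B cell identity lists had medians of 0.657 and 0.393, which became 0.2 and -0.07 under spike-in scaling, against -0.47 for all genes. Against S38D, 6 of the 38 B cell identity genes were higher in S38A and 2 lower (10.2% and 7.51% of all genes). The count of identity genes that passed in mitotic cells ranged from 11, without WT or S38A mitotic replicate 1, to 23 when single libraries were left out, and was 12 without WT mitotic replicate 2.

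More genes of the cell cycle rose than fell in S38A. Among G1/S and replication genes, 25 of 67 rose and 3 fell (8.31% and 8.72% of all genes), with a median of 0.404. Cdc6, which loads the replicative helicase, went from 45.0 and 42.1 CPM to 98.0 and 104 CPM, a rise of 1.21 (SE 0.119, adjusted p = 6.45e-06). Rrm2, the regulated subunit of ribonucleotide reductase, which lies on chromosome 12, rose by 1.05 (SE 0.13). Uhrf1, which guides DNA methylation, rose by 1.13 (SE 0.172), and the helicase subunits Mcm2 and Mcm3 by 0.82 and 0.72. The 3 falls were the G1 cyclins Ccnd2 (-1.23, SE 0.231) and Ccnd3 (-0.74, SE 0.132) and their kinase Cdk4 (-0.34, SE 0.109). Among G2/M and mitosis genes, 22 of 72 rose and 1 fell (8.31% and 8.72% of all genes), with a median of 0.339. Nusap1, a spindle protein, went from 36.6 and 31.4 CPM to 77.6 and 76.4 CPM, and Kif23, a kinesin of cell division, from 46.9 and 38.4 CPM to 82.8 and 80.1 CPM. Spc24, a kinetochore protein, rose by 0.80 (SE 0.111), Incenp, of the chromosomal passenger complex, by 0.87 (SE 0.166), and Cdc20, an activator of the anaphase ubiquitin ligase, by 0.65 (SE 0.116). Mybl2, a transcription factor of cell cycle genes, fell by 1.08 (SE 0.163). The share of cells in mitosis was not analysed here. In asynchronous cells 28 of the 67 G1/S genes rose and 1 fell, and 32 of the 72 G2/M genes rose and none fell, against 11.7% of all genes that rose. The medians there were 0.29 and 0.402. Under spike-in scaling the G1/S genes had 6 rises, 9 falls and a median of -0.16, and the G2/M genes 3 rises, 2 falls and a median of -0.04. The mitotic G1/S count ranged from 16 to 37 when single libraries were left out, with 16 without WT mitotic replicate 2 and 18 without S38A mitotic replicate 1. The mitotic G2/M count ranged from 11 to 31, with 11 without either S38A and 13 without either WT mitotic library.

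Of 41 immediate early genes, the first to answer a signal, 12 rose and 3 fell in S38A (8.31% and 8.72% of all genes), with a median of 0.356. These 15 calls became 7 without S38A mitotic replicate 1, 8 without S38A mitotic replicate 2, 8 with DESeq2 and 9 under spike-in scaling. Rgs2, a regulator of G protein signalling, went from 249 and 255 CPM to 511 and 534 CPM (1.05, SE 0.118), and the phosphatase gene Dusp2 from 859.9 and 874 CPM to 1619.7 and 1498 CPM. Fos, Id2 and Nfkbia, which rose by 1.05, 1.19 and 0.65, lie on chromosome 12. Cd69, an early activation antigen, fell by 4.37 (SE 0.588), from 7.18 and 8.56 CPM to 0.181 and 0.532 CPM. Of 26 NF-kB targets 3 rose and 7 fell, and these 10 calls became 6 without WT mitotic replicate 2 and 4 without S38A mitotic replicate 1.

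Of 21 nuclear long noncoding RNAs tested, 7 fell and none rose (8.72% and 8.31% of all genes), with a median of -0.484. The libraries were made from cleared polysome lysates, so nuclear RNAs were read only as far as they entered the lysate. What share entered was not tested. Neat1, the scaffold of paraspeckles, went from 246 and 215 CPM to 114 and 95.6 CPM, a fall of 1.14 (SE 0.12). Malat1, of nuclear speckles, fell by 0.95 (SE 0.226). Mir17hg, the host of a microRNA cluster, went from 33.2 and 37.1 CPM to 13.2 and 10.3 CPM, a fall of 1.58 (SE 0.182). The small nucleolar RNA hosts Snhg20 and Snhg3 fell by 1.08 (SE 0.145) and 0.83 (SE 0.122). S38A was below S38D for 9 of the 21 genes and above it for none (7.51% and 10.2% of all genes). In S38D mitotic cells Mir17hg, Snhg20 and Snhg3 were near or above the WT values, at 37.1 and 42.6 CPM for Mir17hg, while Neat1, at 137 and 139 CPM, and Malat1, at 64.1 and 52.7 CPM, were below them. The mRNAs of the 25 tested histone genes of the S phase class mostly end without poly(A) and are poorly caught by this method. Of these genes 6 fell and 1, Hist3h2a, rose (8.72% and 8.31% of all genes). Their median of -0.38 became -0.038 when only genes above 10 CPM were kept, and the 7 calls became 3 or 4 without any 1 of the WT and S38A mitotic libraries.

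The translation machinery is given by its parts, beside the 17.0% of all genes that changed. Among cytosolic ribosomal proteins, 7 of 79 fell and 2 rose (11.4%), around a median of -0.056, with 1 of the rises off chromosome 12. These 9 calls became 2 without WT mitotic replicate 1, 3 without either S38A mitotic library and 23 and 22 without S38D asynchronous replicates 1 and 2. Of the other stalk proteins, Rplp0 fell by 0.40 (SE 0.112, adjusted p = 0.0224; 0.223 without WT mitotic replicate 1, and lost also without either S38A mitotic library and under spike-in scaling), and Rplp1 and Rplp2 did not pass at -0.28 and -0.14. Among translation factors 11 of 53 rose, 8 of them off chromosome 12, and 3 fell (26.4%). Without S38A mitotic replicate 2, 8 translation factors passed. Eif5b, the GTPase that joins the ribosomal subunits, went from 46.5 and 39.3 CPM to 109.6 and 85.1 CPM, a rise of 1.18 (SE 0.188), and Eif4g3, a scaffold of the cap-binding complex, rose by 1.51 (SE 0.214). Eif5 and Eif2s1, which rose by 0.91 and 0.86, lie on chromosome 12. Eif1, which guards start codon choice, fell by 0.53 (SE 0.0967), and 4E-BP1 is given above. Ribosome biogenesis had 14 rises and 3 falls among 72 genes (23.6%). Of 17 genes of the ribosomal stalk and its partners, which include Rpl12, Rplp0 and Eif5b, 3 rose, 2 of them off chromosome 12, and 2 fell (29.4%). Of 47 proteasome genes 8 rose, 6 of them off chromosome 12, and 2 fell (21.3%). Of 75 respiratory chain genes 4 rose and 1 fell (6.67%). Of 36 glycolysis and hypoxia genes 3 rose, 1 of them off chromosome 12, and 1 fell (11.1%). With single libraries left out, these counts ranged from 7 to 30 for ribosome biogenesis, from 1 to 7 for the stalk, from 5 to 14 for the proteasome, from 2 to 12 for the respiratory chain and from 2 to 8 for glycolysis. Each of these 5 was lowest without a WT or S38A mitotic library. The counts of ribosome biogenesis, respiratory chain and glycolysis genes were highest without an S38D asynchronous library. Tubulin genes, whose mRNAs are less stable when free tubulin is high, gave 1 rise, Tubb5 (0.52, SE 0.134), and 2 falls of 13, Tuba1a (-0.73, SE 0.106) and Tubb2a (-0.94, SE 0.188). The adjusted p of Tubb5 was 0.081 and 0.0662 without WT mitotic replicates 1 and 2 and 0.135 without S38A mitotic replicate 2.

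Calls in the remaining lists depended on single libraries and are given beside the 17.0% of all genes that changed. Of 17 homing and chemokine receptor genes, 5 rose, Ackr4 among them, and 4 fell (52.9%). Of 28 B cell receptor signalling genes 5 rose and 2 fell (25.0%). Plasma cell genes gave 2 rises of 13 (15.4%), and MHC class II genes 1 rise and 2 falls of 19 (15.8%). Of 28 interferon-stimulated genes 2 rose and 3 fell, Ly6a among the falls (17.9%). Of 38 PI3K and FOXO genes 6 rose, 3 of them off chromosome 12, and 3 fell (23.7%). For 27 p53 targets there were 4 rises and 4 falls (29.6%). For 33 genes of the unfolded protein response there were 2 rises, 1 of them off chromosome 12, and 4 falls (18.2%). For 31 heat shock and chaperonin genes there were 5 rises, 4 of them off chromosome 12, and 2 falls (22.6%). Genes of the BCL2 family and caspases gave 1 rise and 2 falls of 32 (9.38%). Serine, glycine and one-carbon genes gave 4 rises, 3 of them off chromosome 12, and 4 falls of 21 (38.1%). Aminoacyl-tRNA synthetases gave 2 rises and 5 falls of 24 (29.2%), and mRNAs encoded in mitochondria 1 fall of 7 (14.3%). With single libraries left out, the calls ranged from 3 to 9 for homing, 3 to 8 for B cell receptor signalling, 1 to 5 for plasma cell, 2 to 5 for MHC class II, 3 to 10 for interferon-stimulated and 4 to 13 for PI3K and FOXO genes. They ranged from 3 to 12 for p53 targets, 3 to 9 for the unfolded protein response, 1 to 13 for heat shock, 1 to 7 for the BCL2 family, 5 to 9 for serine and glycine genes, 1 to 9 for synthetases and 0 to 1 for mitochondrial mRNAs. The libraries that moved these counts by over 1.5 times were WT and S38A mitotic ones downward and S38D asynchronous ones upward, except for heat shock and the BCL2 family, which also fell without other libraries.

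The line difference was compared between the states as a whole. In asynchronous cells 2223 genes changed between S38A and WT (21.2%), 1224 up and 999 down. Of these, 868 also changed in the same direction in mitotic cells, which is 48.6% of the mitotic and 39.0% of the asynchronous calls, and 13 changed in opposite directions. Off chromosome 12 the shared number was 762. Without regard to the test, 87.2% of the mitotic calls had the same sign in asynchronous cells. The difference between states was called for 104 genes (0.993%), 52 in each direction (0.496% each). That count was 4 without WT asynchronous replicate 1 and 1218 without S38D asynchronous replicate 1, a library outside the contrast that enters only the shared spread. Of these genes, 58 changed in mitotic cells.

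**Figure D5:**
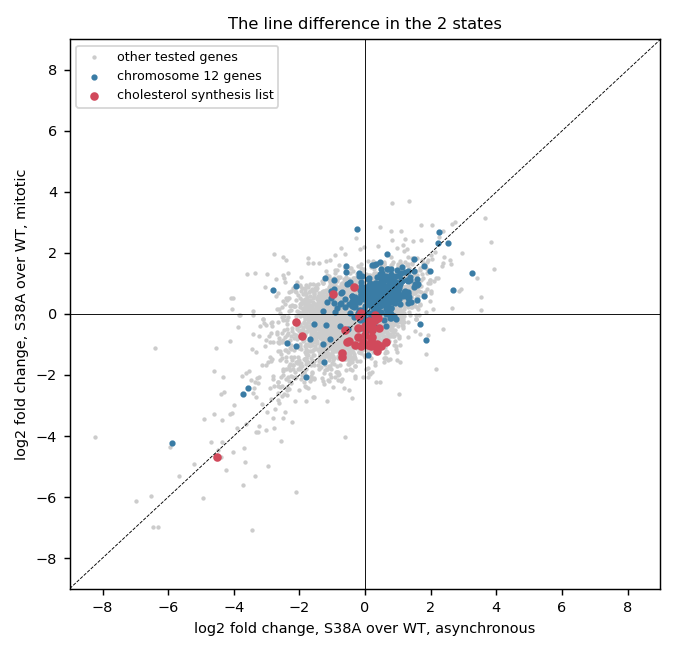
Log2 difference between S38A and WT for each tested gene in asynchronous (horizontal) and mitotic (vertical) cells, with the line of equal values dashed. Chromosome 12 genes (blue) lie up and right of the origin (medians 0.461 and 0.634), and most cholesterol genes (red) lie below the horizontal line near an asynchronous value of 0 (medians 0.001 and -0.746).

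The cell type was checked against its markers. All 8 defining B lineage markers were detected in every mitotic library, with a summed level of 3090 and 3230 CPM in WT and 4130 and 4690 CPM in S38A. T and NK cell markers summed to 3.73 to 7.27 CPM, with 13 of 20 at 0 in all 4 libraries, among them Cd3e, Cd4 and Cd8a. Myeloid markers summed to 58.6 and 73.1 CPM in WT and 13.4 and 13.3 CPM in S38A, with 10 of 20 at 0. Clec4d made up 50.8 and 63.9 CPM of the WT sums and 5.06 and 6.74 CPM of the S38A sums. Erythroid, stromal and epithelial markers summed to 612 and 643 CPM in WT and 887 and 804 CPM in S38A, with 9 of 20 at 0. That sum was mostly the globin Hbb-bt (493 and 513 CPM against 681 and 580.2 CPM). Its other main members were Afp, which fell from 55.9 and 57.7 CPM to 7.23 and 4.43 CPM, Pecam1, and Vim, the intermediate filament vimentin, which rose by 1.59 (SE 0.156). The collagens Col1a2 and Col3a1, the keratins Krt8 and Krt18 and the globins Hba-a1 and Hba-a2 were at 0. What part these markers had in the results was not tested.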

How the data were processed

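3′ mRNA of 12 libraries, 2 in each of 6 groups, was analysed, with the comparison resting on 4 of them. The deposited files hold counts, whole numbers of reads per gene without normalization, for 51826 genes and 92 spike-ins. Per the submitters' processing notes, the tools were STAR 2.5.3a, cutadapt 1.12 and bcl2fastq 2.16.0.10, with the build mm10. Which program counted reads, with which annotation and strand setting, is not given in the sources used here. Library preparation from cleared polysome lysates, and QuantSeq 3′ forward kits, are per the labels' protocols. Total gene reads ranged from 3432875 to 6587997. Intervals cover counting error only.

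Identifiers were matched to GENCODE M21 (99.63%). Genes passing filterByExpr at a minimum count of 10 (10477) were scaled by TMM. edgeR 4.0.16 under R 4.3.3 fitted 6 group means with 6 residual degrees of freedom. Robust quasi-likelihood p-values had a Benjamini-Hochberg adjustment over the 10477 genes, with calls under 0.05. The fit was tested on simulated data. Named genes were Rpl12 and called genes whose higher group averaged 10 CPM or more, with separated libraries and no predicted, clone, RIKEN or pseudogene symbol, by size: 12 rises and 12 falls off chromosome 12, 5 and 5 on it (2 falls qualified), 4 each way against S38D and, without the separation, 5 each way for the difference between states. Up to 4 members of each of 31 lists were taken by adjusted p. Other list members were named for their role after their values were seen. The members, lists and tests were chosen with earlier results of these data known. Lists are described by counts and medians, without a set test. Alternatives were DESeq2 1.42.0, limma-voom (limma 3.58.1), other scalings and filters, robust estimation off, only the groups compared, a replicate block and single libraries left out. Replicate numbers were not treated as pairing the samples. Some list members are not reported here.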

Additional observations from a re-analysis of the deposited data

Results flagged for a closer look

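Groups of 2 libraries are too small for a check of single outlying samples. What drew attention is a line difference that itself differed between mitotic and asynchronous cells in an interaction test, which called 104 genes, 15 of them of the cholesterol list. The 5 largest positive log2 values were Cntrob at 4.56, Adam9 at 3.81, Gramd4 at 2.67, Sap30 at 2.45 and Birc2 at 2.42. None of these 5 differed between S38A and WT in mitotic cells, and all 5 were lower in S38A in asynchronous cells. Cntrob, a centrosome protein gene, stood at 1.32 and 1.54 CPM in WT and 1.08 and 3.01 CPM in S38A mitotic libraries, and at 23.3 ± 1.95 CPM in WT and 1.39 ± 0.261 CPM in S38A asynchronous libraries (SD, n = 2). Birc2, an inhibitor of apoptosis, stood at 22.4 ± 2.04 CPM in asynchronous WT and 6.05 and 7.02 CPM in mitotic WT.

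The 5 most negative were Bfsp2 at -2.44, Etv4 at -1.97, Mvd at -1.58, Fdft1 at -1.57 and Dhcr7 at -1.53. Etv4, an ETS factor, was at 23.2 and 20.2 CPM in WT and 5.24 and 8.33 CPM in S38A mitotic libraries, and did not pass in asynchronous cells (0.30, adjusted p = 0.482). Bfsp2, a filament gene of the lens, did not differ in mitotic cells (0.20, adjusted p = 0.776) and was higher in S38A in asynchronous cells (2.64, adjusted p = 3.53e-05). Each of the 10 lost its call in at least 1 alternative. Fdft1 and Dhcr7 lost it in 1 alternative each, without WT asynchronous replicate 1 (adjusted p = 0.0506 and adjusted p = 0.0537).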

How the results depend on the processing

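Of 153 single-gene results recomputed under 23 alternatives, none reversed in a setting that gave it a value. The 10 CPM filter gave values for 147 and DESeq2 for 145. Without a WT or S38A mitotic library 15 to 33 lost the call, under spike-in scaling 14 and with DESeq2 9 of 145. Mitotic calls numbered 1133 under spike-in scaling and 1091 with DESeq2, and off chromosome 12 they numbered 1016 and 973. The chromosome 12 median was 0.549 without a filter and 0.587 above 10 CPM. With single libraries left out, in turn, calls ranged from 829 to 2591 in mitotic cells, from 726 to 2390 off chromosome 12 and from 94 to 202 on chromosome 12. The same range was 875 to 3331 in asynchronous cells, 496 to 1248 for calls shared by both states, 702 to 2715 for S38A against S38D and 4 to 1218 for the difference between states. DESeq2 gave 1458 asynchronous calls, 561 shared calls, 1065 against S38D and 170 for the difference between states (52 higher, 118 lower). Fitting only the groups compared gave 3913 asynchronous calls, 3123 against S38D and 939 for the difference between states. Leaving out WT mitotic replicate 1 and S38D asynchronous replicate 1 together gave 3871 asynchronous calls, 3183 against S38D and 803 for the difference between states. This setting was chosen after seeing the data, because replicates in these groups lay farthest apart on the main axis of variation within groups. Within a pair each library lies as far from the other, so which one is outlying cannot be told. Spike-in scaling gave 1213 against S38D (819 higher, 394 lower), split the asynchronous calls 202 higher to 3115 lower, and gave 491 for the difference between states (482 higher, 9 lower). That count was also 616 without a filter and 26 with robust estimation off. Causes of these shifts were not tested. A replicate block gave 1855 mitotic calls, 161 on chromosome 12 and 154 for the difference between states, and lost none of the 153 calls. This block is 1 offset common to all 6 groups, so it cannot decide whether the 4 libraries compared are paired. Same-numbered replicates were not treated as pairs, since not every correlation of deviations between groups was over 0.1. It was 0.549 between WT and S38A mitotic libraries, the groups compared, and pairing of these alone was not tested. It was 0.786 between S38D asynchronous and WT mitotic libraries and 0.591 between S38A mitotic and S38D asynchronous. For the other group pairs it ranged from -0.399 to 0.0426.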
